A study of Cricetulus griseus with 6 samples.

Results

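The data described here are the mRNA levels of 7 genes that the transcription factor p53 is known to activate, namely *Cdkn1a*, *Mdm2*, *Ccng1*, *Bbc3*, *Sesn1*, *Phlda3* and *Zmat3*. They were taken by symbol from a table of 27873 entries, and each had 1 entry under its own symbol. The 7 genes are well known members of the pathway, and no measured value is part of the rule that picked them, but they were proposed with earlier results of these data known.

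CHO-T is a Chinese hamster ovary line that stably expresses mouse T-cadherin (*Cdh13*) from a retrovirus, selected with puromycin, and the sources used here do not say whether it is 1 clone. The cells were transfected with negative control siRNA (n = 3 libraries) or with 1 *Xbp1* siRNA duplex (n = 3 libraries), and RNA was taken 48 h later, so both groups carry the T-cadherin transgene and had gone through transfection. The authors deposited FPKM values (fragments counted on a gene, divided by its exon length and by the mapped reads of the library), in which levels of different genes can be compared per length. The labels do not say whether the libraries came from separate cultures, and p-values then measure only the spread between these libraries. Since a single siRNA sequence was used, an effect of losing *Xbp1* and an effect of that sequence on other transcripts cannot be told apart. In this bulk RNA, a smaller share of cells that express a gene and less of its RNA per cell cannot be told apart.

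p53 is kept low in unstressed cells by MDM2, a ubiquitin ligase that marks it for degradation, and it accumulates after DNA damage and other stresses mainly through protein stability. Active p53 binds near its target genes and raises their transcription, *Mdm2* among them, which closes a feedback loop. Its targets halt the cell cycle (*Cdkn1a*), start apoptosis (*Bbc3*), restrain growth signalling (*Sesn1*, *Phlda3*), bind RNA (*Zmat3*) or feed back on p53 (*Mdm2*, *Ccng1*). Most of these genes also answer to other transcription factors. The amount and activity of the p53 protein in CHO-T cells were not analysed here.

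The control libraries summed to 646651 to 666267 FPKM and those with *Xbp1* siRNA to 593487 to 600986 FPKM, so the sums did not overlap between the conditions. Read totals are not part of the files, but the steps on which low values fall gave a depth of 94.0% to 98.0% of control replicate 1 for the other control libraries and of 98.2% to 116% for those with *Xbp1* siRNA. *Xbp1*, the silenced gene, had 26.0, 26.2 and 28.4 FPKM with control siRNA and 2.18, 2.11 and 1.39 FPKM with *Xbp1* siRNA. This is a log2 fold change of −3.78 (SE 0.16, adjusted p = 5.61e-06 in limma), so the labels and the silenced gene go together. Of 6 markers of ovarian somatic cells, 4 had an entry, *Fshr* was listed at 0 in every library, and the 4 together summed to 5.32 to 7.10 FPKM with control siRNA and 5.91 to 8.45 FPKM with *Xbp1* siRNA. The 4 mesenchymal markers had an entry and summed to 383 to 402 FPKM in control and 319 to 343 FPKM in silenced libraries, with *Col1a1* and *Col1a2* at 0 in every library. *Vim* fell from a mean of 377 to 304 FPKM (log2 fold change −0.31; limma, adjusted p = 7.38e-04), and *Fn1* rose from 13.1 to 23.3 FPKM (0.83; limma, adjusted p = 2.15e-05). Of 4 epithelial markers 3 had an entry, *Krt18* was listed at 0, and their sum was 1.83 to 2.16 FPKM in control and 4.59 to 5.79 FPKM in silenced libraries. Both detected ones were called 2-fold higher, *Epcam* with a log2 fold change of 1.32 (limma, adjusted p = 2.56e-04) and *Cdh1*, below 1 FPKM in every library, with 1.29 (limma, adjusted p = 0.0489). Of the pair of leukocyte markers *Ptprc* was listed at 0 in every library, and *Cd68* rose from 5.62 to 7.79 FPKM (log2 fold change 0.46; limma, adjusted p = 0.0142). Of the endothelial pair *Cdh5* was listed at 0, and *Pecam1* had 0.0472 to 0.268 FPKM in control and 0 to 0.0452 FPKM in silenced libraries (limma, adjusted p = 0.165). The part of these markers in the results was not tested.

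The conditions were compared on log2(FPKM + 0.1) values by limma, a scale that shrinks changes of weakly expressed genes, over 14361 genes with a mean of at least 0.1 FPKM. A gene is said to rise, to fall or to pass when its p-value was under 0.05 after Benjamini-Hochberg adjustment over all of these genes, and it is called 2-fold changed when the log2 fold change was also at least 1 in size. All 7 genes were above the filter. After *Xbp1* silencing, *Cdkn1a* fell to 44.1% of the control level, *Mdm2* fell slightly, *Sesn1* rose, and the other 4 genes did not pass. Thus 3 of the 7 genes passed (42.9%), 1 upward and 2 downward. Over all genes tested 40.4% passed, 20.2% higher and 20.2% lower, and among the 9209 genes with a mean of at least 5 FPKM, which include all 7, 52.4% passed. The share among the p53 targets was therefore near that of the whole table. *Cdkn1a* alone was called 2-fold lower, against 2.5% of all genes tested, and 0 of the 7 were called 2-fold higher, against 2.69%, with limma. At an unadjusted p under 0.05, 3 of the 7 genes differed, 1 of them higher. The median log2 fold change of the 7 genes was −0.087, and that of all genes tested was 0.0063.

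**Figure D1:**
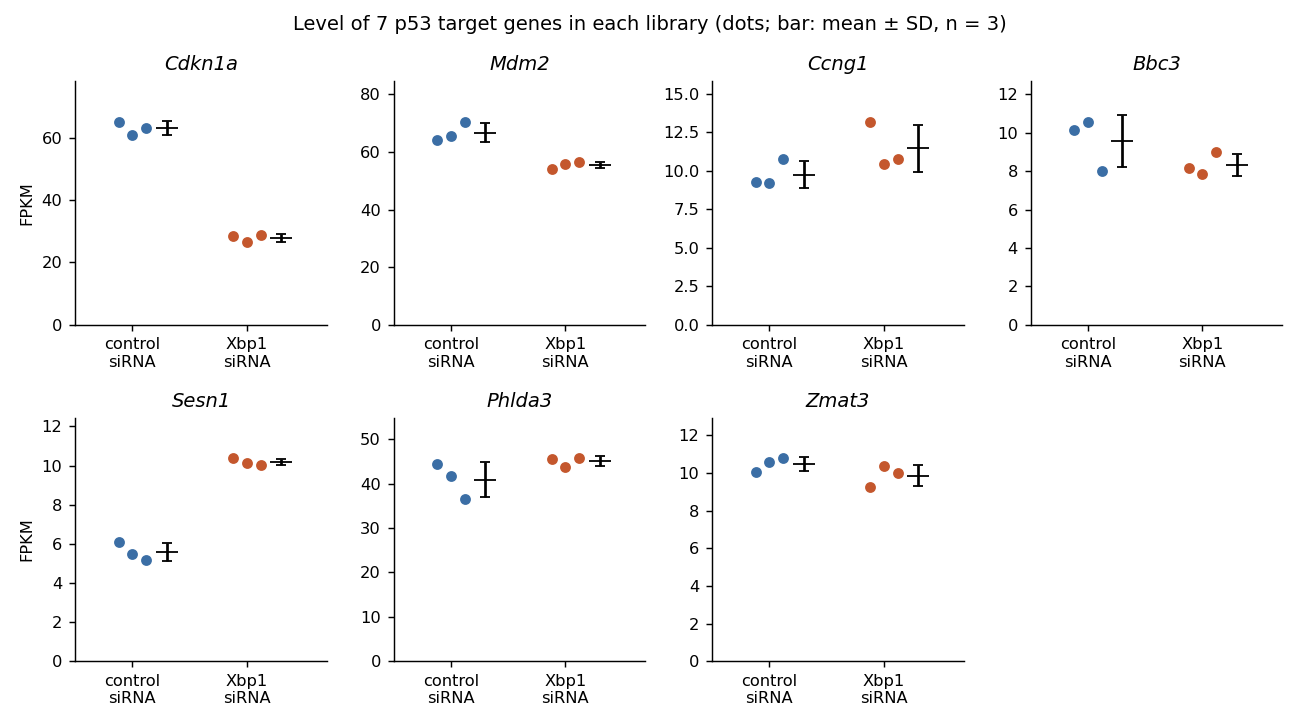
Level of 7 p53 target genes in FPKM (y axis, from 0) in each library with control siRNA (blue dots) or *Xbp1* siRNA (orange dots), with mean ± SD (n = 3) as a bar beside them. The dots of *Cdkn1a* and *Mdm2* lie lower with *Xbp1* siRNA and those of *Sesn1* lie higher, each without overlap, while the dots of *Ccng1*, *Bbc3*, *Phlda3* and *Zmat3* overlap between the conditions.

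*Cdkn1a* showed the largest change of the 7 genes. It encodes p21, which binds and inhibits cyclin-dependent kinases and is the best known p53 target in cell cycle arrest. Its level was 65.3, 60.9 and 63.4 FPKM with control siRNA and 28.4, 26.4 and 28.8 FPKM with *Xbp1* siRNA. Even the highest silenced library was far below the lowest control library, and the libraries of a condition differed little among themselves. The mean fell from 63.2 ± 2.16 to 27.9 ± 1.27 FPKM (mean ± SD, n = 3 each), which is 44.1% of the control level. The log2 fold change was −1.18 (SE 0.049, 95% interval −1.29 to −1.06; limma, adjusted p = 4.75e-06), and only 2.7% of all genes tested had a lower one. It stayed between −1.20 and −1.12 under the 14 alternatives. With 3 libraries a condition, a two-sided exact permutation test of 1 gene cannot give a p below 0.10.

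Of the feedback genes, *Mdm2* fell and *Ccng1* did not pass. *Mdm2*, the ubiquitin ligase gene that p53 activates, had 64.2, 65.5 and 70.5 FPKM with control siRNA and 54.2, 55.9 and 56.4 FPKM with *Xbp1* siRNA. All silenced libraries were below all control libraries. The mean fell from 66.7 ± 3.37 to 55.5 ± 1.18 FPKM (mean ± SD, n = 3 each), which is 16.8% lower, with a log2 fold change of −0.26 (95% interval −0.37 to −0.16; limma, adjusted p = 0.00298). *Ccng1*, the gene of cyclin G1, which recruits a phosphatase to MDM2, had 9.27, 9.19 and 10.7 FPKM with control siRNA and 13.2, 10.4 and 10.8 FPKM with *Xbp1* siRNA. The conditions overlapped, and 1 silenced library, replicate 1, stood above the rest. The log2 fold change of *Ccng1* was 0.23 (95% interval −0.031 to 0.49; limma, adjusted p = 0.144), and without *Xbp1* siRNA replicate 1 it was 0.12.

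*Bbc3* encodes PUMA, a BH3-only protein that triggers apoptosis at mitochondria. Its level was 10.1, 10.6 and 8.01 FPKM with control siRNA and 8.15, 7.86 and 8.98 FPKM with *Xbp1* siRNA. The conditions overlapped through control replicate 3, and *Bbc3* had the widest spread among control libraries of the 7 genes, with a coefficient of variation of 14.4%. The log2 fold change was −0.19 (95% interval −0.47 to 0.084; limma, adjusted p = 0.241). It was −0.11 without control replicate 2 and −0.31 without control replicate 3 (adjusted p = 0.0372, limma). Under every alternative except leaving out control replicate 3, the adjusted p lay between 0.205 and 0.526.

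Of the genes that restrain growth signalling, *Sesn1* rose and *Phlda3* did not pass. *Sesn1* encodes sestrin 1, which inhibits the growth kinase complex mTORC1. It had 6.11, 5.49 and 5.17 FPKM with control siRNA and 10.4, 10.1 and 10.05 FPKM with *Xbp1* siRNA. The silenced libraries lay well above the control libraries and close to each other. The mean rose from 5.59 ± 0.479 to 10.2 ± 0.165 FPKM (mean ± SD, n = 3 each), 1.82-fold, with a log2 fold change of 0.86 (SE 0.085, 95% interval 0.66 to 1.06; limma, adjusted p = 2.06e-04). Of all genes tested, 93.8% had a lower log2 fold change than *Sesn1*. Across the 14 alternatives it lay between 0.77 and 0.92. *Phlda3*, whose product competes with the kinase AKT for membrane lipids, had 44.4, 41.8 and 36.5 FPKM with control siRNA and 45.6, 43.7 and 45.7 FPKM with *Xbp1* siRNA. The conditions overlapped, with the lowest value in control replicate 3. Its log2 fold change was 0.14 (95% interval −0.027 to 0.31; limma, adjusted p = 0.162), and without control replicate 3 it was 0.062.

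*Zmat3*, which encodes an RNA-binding zinc finger protein that takes part in splicing, had 10.1, 10.6 and 10.8 FPKM with control siRNA and 9.24, 10.4 and 9.98 FPKM with *Xbp1* siRNA. The conditions overlapped. Its log2 fold change was −0.087 (95% interval −0.25 to 0.080; limma, adjusted p = 0.377), and it was −0.041 without *Xbp1* siRNA replicate 1.

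**Figure D2:**
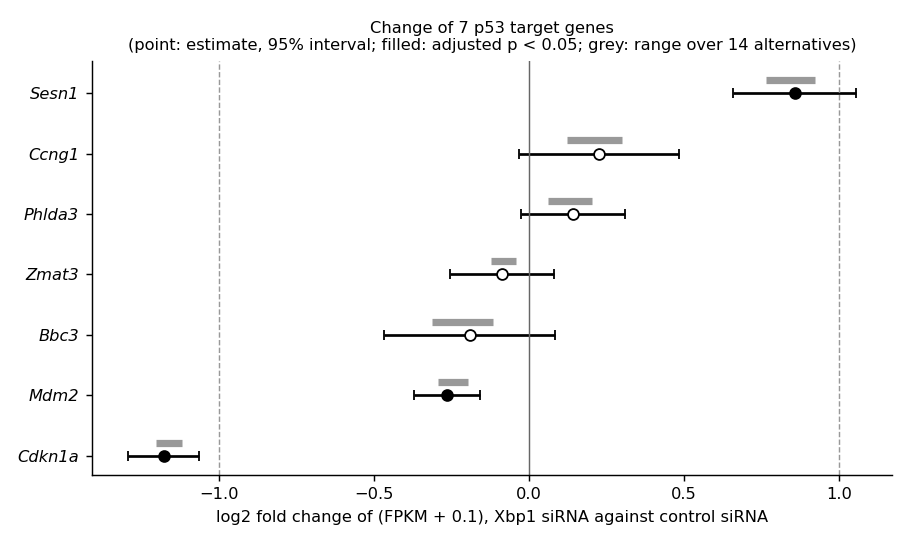
Log2 fold change of FPKM + 0.1 (x axis, *Xbp1* siRNA against control siRNA) for the 7 p53 target genes, with the 95% interval of limma as a black line, filled points for an adjusted p under 0.05, and the range over 14 alternative analyses in grey. *Cdkn1a* is the only gene beyond the dashed line at −1, *Sesn1* stands at 0.86, and the intervals of *Ccng1*, *Phlda3*, *Zmat3* and *Bbc3* include 0.

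The order of the 7 genes by level differed between the conditions. In control cells *Mdm2* (66.7 FPKM) and *Cdkn1a* (63.2 FPKM) led, with overlapping libraries, followed by *Phlda3* (40.9 FPKM), whose libraries lay below those of both. *Zmat3*, *Ccng1* and *Bbc3* followed between 10.5 and 9.57 FPKM with libraries that overlapped from each to the next, and *Sesn1* was the lowest at 5.59 FPKM. With *Xbp1* siRNA, *Cdkn1a* (27.9 FPKM) stood below *Mdm2* (55.5 FPKM) and *Phlda3* (45.0 FPKM), with no overlap of libraries. *Sesn1* then overlapped with *Zmat3* (9.86 FPKM), and *Bbc3* was the lowest at 8.33 FPKM. The libraries of 3 of the 7 genes did not overlap between the conditions (*Cdkn1a*, *Mdm2* and *Sesn1*), against 51.8% of all genes tested.

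Ratios of genes within a library do not depend on a scaling factor of the library. The ratio of *Cdkn1a* to *Mdm2*, also a target of p53, was 0.949 ± 0.0613 in control cells and 0.502 ± 0.0262 in silenced cells (mean ± SD, n = 3 each), with no overlap of libraries. The ratio of *Cdkn1a* to *Sesn1* was 11.3 ± 0.819 and 2.74 ± 0.131 (mean ± SD, n = 3 each), so its silenced value was 24.1% of the control. The ratio of *Mdm2* to *Mdm4* was 7.94 ± 0.789 and 7.21 ± 0.156, and that of *Bax* to *Bbc3* was 4.51 ± 0.453 and 4.70 ± 0.781 (mean ± SD, n = 3 each), both with overlapping libraries. Ratios are given as values and were not tested.

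**Figure D3:**
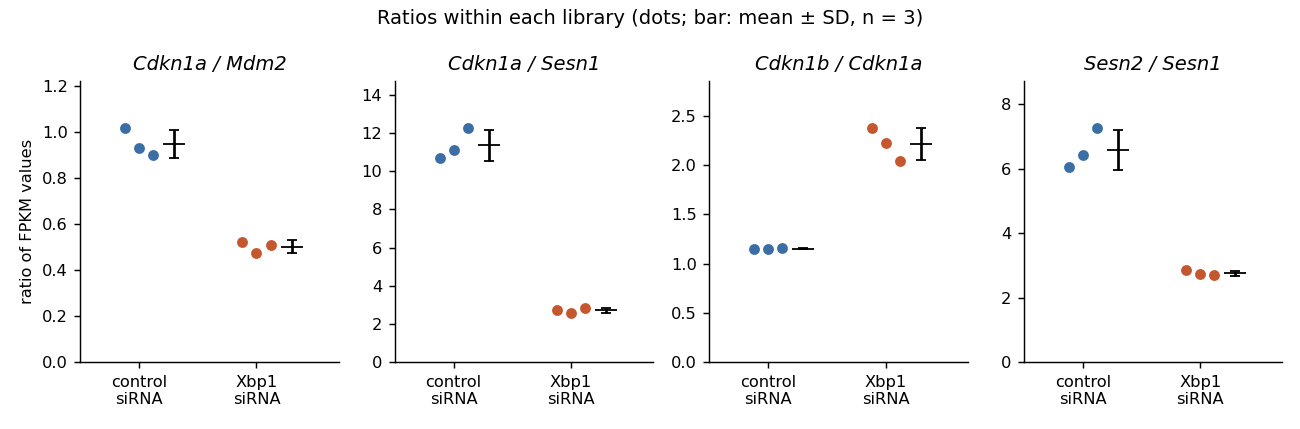
Ratio of the FPKM values of a pair of genes (y axis, from 0) in each library with control siRNA (blue dots) or *Xbp1* siRNA (orange dots), with mean ± SD (n = 3). The ratios of *Cdkn1a* to *Mdm2* and to *Sesn1* are lower in every silenced library, *Cdkn1b* gains on *Cdkn1a*, and *Sesn2* loses against *Sesn1*.

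Paralogs of the p53 pathway genes were examined as a list of 14, of which 13 had an entry and 9 were above the filter. *Sesn2*, the sister gene of *Sesn1*, had 37.0, 35.3 and 37.6 FPKM with control siRNA and 29.6, 27.9 and 27.1 FPKM with *Xbp1* siRNA. It fell by 0.38 on the log2 scale (adjusted p = 8.27e-04, limma), opposite to *Sesn1*, so that the ratio of *Sesn2* to *Sesn1* went from 6.59 ± 0.619 to 2.77 ± 0.0772 (mean ± SD, n = 3 each) with no overlap of libraries. *Sesn3*, the remaining sestrin gene, was below the filter. *Cdkn1b*, the gene of the p21 relative p27, fell by 0.24 on the log2 scale (adjusted p = 0.0169, limma) and *Zmat5* by 0.28 (adjusted p = 0.0254, limma). The adjusted p of *Cdkn1b* rose to between 0.0529 and 0.0614 without any 1 of control replicate 1 and *Xbp1* siRNA replicates 2 and 3, and that of *Zmat5* to between 0.0665 and 0.0789 without any 1 of control replicates 1 and 3 and *Xbp1* siRNA replicates 1 and 2. Thus 3 of the 9 paralogs tested fell (33.3%), against 20.2% of all genes tested and 28% of those with a mean of at least 5 FPKM. Of these paralogs 1 fell, *Sesn2*, without control replicate 1, without *Xbp1* siRNA replicate 2, after quantile normalization or in eBayes without a trend. By limma 0 rose, also at an unadjusted p under 0.05. *Mdm4*, the MDM2 relative that binds p53 without marking it for degradation, stood at −0.13 on the log2 scale (adjusted p = 0.309, limma). *Tp63*, which encodes a p53 relative, was listed at 0 in all libraries and *Tp73*, another relative, was below the filter.

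Genes that control p53 were examined as a list of 26, of which 23 had an entry and 21 were tested. Of these, 5 rose (23.8%), 6 fell (28.6%) and 10 did not pass, with a median log2 fold change of −0.086. These shares are near those of all genes tested (20.2% in each direction) and of genes with a mean of at least 5 FPKM (24.4% higher and 28% lower). *Kat5*, which encodes the acetyltransferase TIP60 that modifies p53, changed most. It had 22.7, 23.8 and 22.4 FPKM with control siRNA and 11.4, 12.05 and 11.8 FPKM with *Xbp1* siRNA, and fell by 0.96 on the log2 scale (adjusted p = 1.56e-05, limma). The libraries of *Kat5* did not overlap between the conditions. *Trim24*, a ubiquitin ligase gene for p53, rose by 0.57 on the log2 scale (adjusted p = 0.00611, limma), and *Ppp1r13b*, whose product ASPP1 directs p53 to apoptosis genes, rose by 0.51 (adjusted p = 0.00218, limma).

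Other reported p53 targets were examined in 5 lists by role, 86 symbols in all, of which 79 had an entry and 73 were tested. Together 22 rose (30.1%), 23 fell (31.5%) and 28 did not pass, and the median log2 fold change was 0.047. All genes tested gave 20.2% in each direction, and genes with a mean of at least 5 FPKM gave 24.4% higher and 28% lower.

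Among targets for arrest and senescence, 12 genes were tested, 7 fell (58.3%) and 1 rose (8.33%), with a median log2 fold change of −0.21. Over all genes 20.2% went in each direction, and among those with a mean of at least 5 FPKM 28% fell and 24.4% rose. Without control replicate 3 or *Xbp1* siRNA replicate 1, 4 arrest targets fell. *Plk2*, which encodes a polo-like kinase, had 119.9, 123 and 129 FPKM with control siRNA and 66.8, 67.2 and 66.7 FPKM with *Xbp1* siRNA. The silenced libraries were nearly equal and all far below the controls, a fall of 0.89 on the log2 scale (adjusted p = 5.35e-06, limma). *Ccnk*, the gene of cyclin K, fell by 0.73 (adjusted p = 1.28e-04, limma), and *Fbxw7*, the gene of an F-box protein that marks cyclin E for degradation, fell by 0.70 (adjusted p = 0.00194, limma). *Tp53inp1*, which encodes a p53-induced stress protein, was weakly expressed, with 0.438, 0.953 and 0.916 FPKM with control siRNA and 0.146, 0.305 and 0.240 FPKM with *Xbp1* siRNA. Its log2 fold change was −1.36 (adjusted p = 0.0225, limma), and it was −0.51 with a pseudocount of 1. Its adjusted p was 0.0797 without control replicate 2, 0.0776 without control replicate 3, 0.0663 without *Xbp1* siRNA replicate 1 and 0.0525 without *Xbp1* siRNA replicate 3.

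Among apoptosis targets, 13 genes were tested, 5 rose (38.5%) and 1 fell (7.69%), with a median log2 fold change of 0.21. Over all genes 20.2% went in each direction, and among those with a mean of at least 5 FPKM 24.4% rose and 28% fell. The apoptosis target that fell, *Aen*, encodes a nuclease. It had 39.3, 35.1 and 33.8 FPKM with control siRNA and 15.8, 15.2 and 15.4 FPKM with *Xbp1* siRNA. Its level fell to 42.9% of the control, in other words it fell by 1.21 on the log2 scale (adjusted p = 1.24e-05, limma), close to the −1.18 of *Cdkn1a*. *Casp6*, a caspase gene, rose by 0.95 on the log2 scale (adjusted p = 0.00618, limma), *Pidd1*, a death domain gene, by 0.89 (adjusted p = 6.35e-04, limma) and *Apaf1*, the gene of the apoptosome scaffold, by 0.75 (adjusted p = 0.00390, limma). *Bax*, which encodes the pore-forming protein that acts after PUMA, stood at −0.14 on the log2 scale (adjusted p = 0.353, limma), and *Pmaip1*, another BH3-only gene, was listed at 0 in all libraries.

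Among targets in metabolism, antioxidant defence and growth control, 16 genes were tested, 8 rose (50%) and 4 fell (25%), with a median log2 fold change of 0.28. Over all genes 20.2% went in each direction, and among those with a mean of at least 5 FPKM 24.4% rose and 28% fell. With any 1 of control replicates 2 and 3 and *Xbp1* siRNA replicates 1 and 3 left out, 5 metabolic targets rose. *Dram1*, an autophagy regulator of lysosomes, had 5.64, 6.20 and 5.65 FPKM with control siRNA and 11.9, 11.1 and 11.6 FPKM with *Xbp1* siRNA, with no overlap, and rose by 0.97 on the log2 scale (adjusted p = 6.11e-05, limma). *Retsat*, a retinol saturase gene, rose by 1.02 (adjusted p = 0.00346, limma), and by 0.89 without control replicate 2. *Tigar*, whose product lowers glycolytic flux, rose by 0.50 (adjusted p = 9.93e-04, limma). *Ddit4*, which encodes the mTORC1 inhibitor REDD1, had 10.5, 13.2 and 10.9 FPKM with control siRNA and 6.12, 5.50 and 6.97 FPKM with *Xbp1* siRNA. It fell by 0.89 on the log2 scale (adjusted p = 9.79e-04, limma). *Sesn2*, also on this list, fell and *Sesn1* rose, as given above.

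Among DNA repair targets, 10 genes were tested, 4 fell (40%) and 1 rose (10%), with a median log2 fold change of −0.21. Over all genes 20.2% went in each direction, and among those with a mean of at least 5 FPKM 28% fell and 24.4% rose. *Triap1*, a small p53-induced survival gene, fell by 0.75 on the log2 scale (adjusted p = 1.74e-04, limma), and *Ercc5*, a nuclease gene of nucleotide excision repair, by 0.69 (adjusted p = 1.03e-04, limma). *Fancc*, a Fanconi anaemia gene, rose by 0.64 (adjusted p = 0.0193, limma). Its adjusted p was 0.0521 without control replicate 1, 0.0702 without *Xbp1* siRNA replicate 1 and 0.0555 without *Xbp1* siRNA replicate 2. The remaining 22 targets tested, of mixed function, held 7 that rose and 7 that fell (31.8% each). *Dcxr*, a carbonyl reductase gene, rose by 0.97 on the log2 scale (adjusted p = 1.80e-04, limma), *Sertad1*, a CDK4-binding regulator, fell by 0.96 (adjusted p = 0.00160, limma), and *Ier5*, an early response gene, fell by 0.91 (adjusted p = 5.90e-04, limma).

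**Figure D4:**
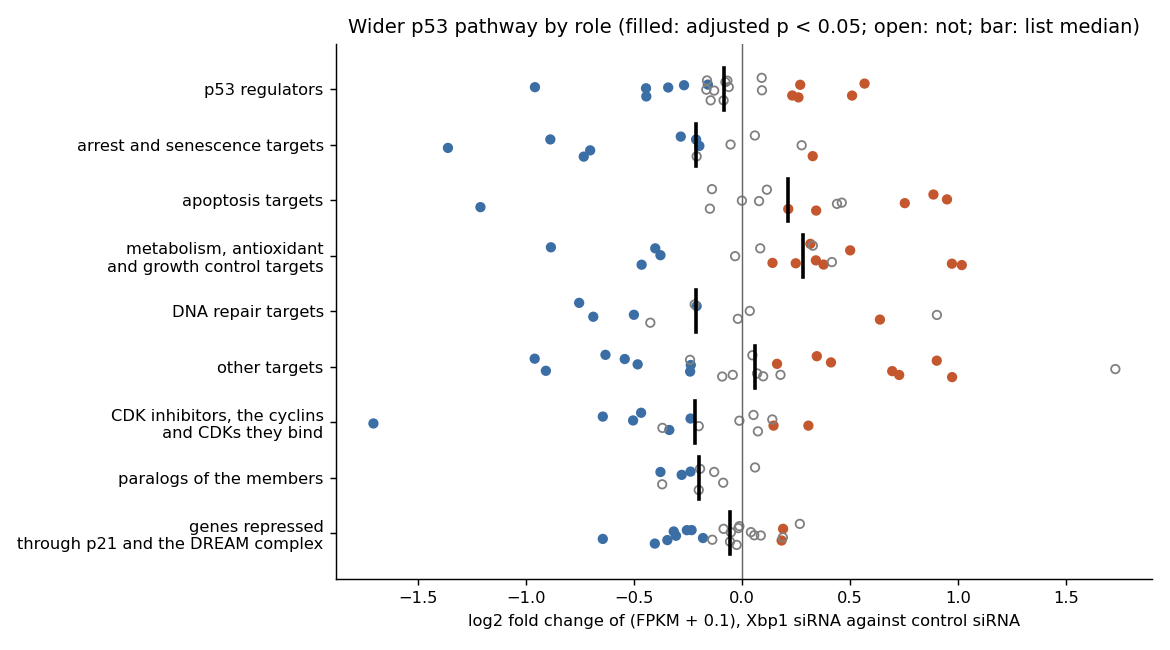
Log2 fold change of FPKM + 0.1 (x axis, *Xbp1* siRNA against control siRNA) of each gene tested in 9 lists of the p53 pathway (rows), filled orange where it rose, filled blue where it fell and open where the adjusted p was 0.05 or more, with the list median as a black bar. Every list except that of the paralogs holds filled points on both sides of 0, and medians run from −0.22 for CDK inhibitors, cyclins and CDKs to 0.28 for metabolic targets.

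Since p21 acts on cyclin-dependent kinases, the CDK inhibitors and their partners were examined as a further list, of which 14 genes were tested, with 2 that rose (14.3%), 6 that fell (42.9%) and a median log2 fold change of −0.22. Over all genes tested 20.2% rose and 20.2% fell, and among those with a mean of at least 5 FPKM 24.4% rose and 28% fell. *Cdkn2c*, which encodes the CDK4 and CDK6 inhibitor p18, had 23.8, 18.5 and 20.5 FPKM with control siRNA and 5.82, 8.10 and 5.35 FPKM with *Xbp1* siRNA. Its level fell to 30.6% of the control (log2 fold change −1.71; limma, adjusted p = 1.80e-04), further than that of *Cdkn1a*. Of the cyclin genes on this list, *Ccna2* fell by 0.64 on the log2 scale (adjusted p = 3.71e-05, limma), *Ccnd1* by 0.50 (adjusted p = 9.16e-04, limma) and *Ccnd2* by 0.47 (adjusted p = 2.84e-04, limma). *Ccnd3* rose by 0.31 on the log2 scale (adjusted p = 7.56e-04, limma), and *Ccne1*, *Ccne2* and *Ccng2* did not pass. *Cdkn1b* was at 1.15 ± 0.00452 times the level of *Cdkn1a* (SD, n = 3) in control cells and at 2.21 ± 0.166 times (SD, n = 3) after silencing.

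Active p53 also lowers many cell cycle genes indirectly, through p21 and the DREAM repressor complex. Of 22 entries tested from such a list, 8 fell (36.4%) and 2 rose (9.09%), against 20.2% of all genes in each direction and 28% and 24.4% of those with a mean of at least 5 FPKM, with a median log2 fold change of −0.054, and the count that rose was 0 or 1 when any 1 library was left out. The 22 entries stand for 21 symbols, as *Birc5* has more than 1 entry. The largest fall was that of *Ccna2*, by 0.64 on the log2 scale, which is also counted on the CDK list above. *Top2a*, the gene of DNA topoisomerase II, had 83.8, 85.9 and 90.0 FPKM with control siRNA and 62.8, 67.3 and 66.0 FPKM with *Xbp1* siRNA. *Top2a* fell by 0.40 on the log2 scale (adjusted p = 3.05e-04, limma) and the proliferation marker *Mki67* by 0.35 (adjusted p = 8.51e-04, limma), while *Cdk1* stood at −0.013 on the log2 scale (adjusted p = 0.825, limma).

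**Figure D5:**
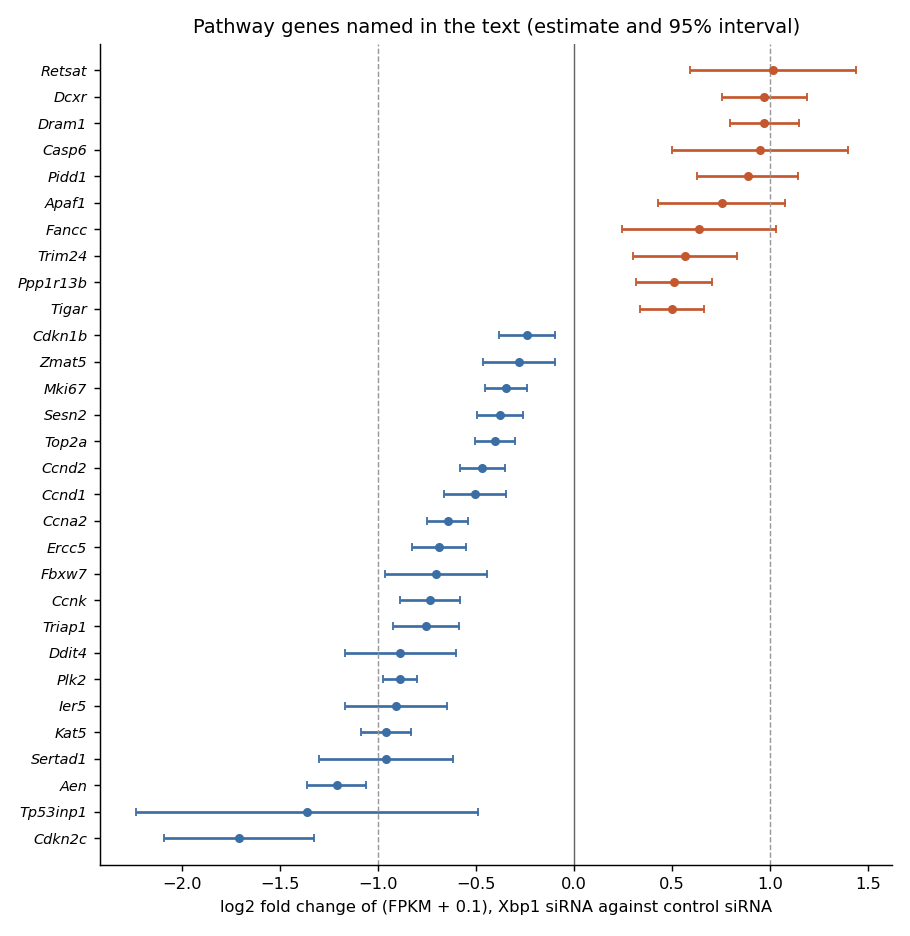
Log2 fold change of FPKM + 0.1 (x axis, *Xbp1* siRNA against control siRNA) with the 95% interval of limma for the pathway genes chosen by the rule for naming, which takes only genes with an adjusted p under 0.05. Values run from −1.71 for *Cdkn2c* to 1.02 for *Retsat*, and dashed lines mark a 2-fold change.

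Among 8058 genes with a mean of at least 5 FPKM and a symbol that is not a LOC number, those whose level followed *Cdkn1a* most closely over the 6 libraries included *Rpp25l* (Pearson r = 0.9996) and *Znf629* (0.9992). The 6 points share the split into conditions, so these correlations are a description of the pattern only.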

How the data were processed

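RNA-Seq libraries (stranded mRNA) of CHO-T cells with control siRNA (n = 3) or *Xbp1* siRNA (n = 3) were sequenced by the authors on a HiSeq system. The submitters' processing notes name HISAT2 2.1.0 and Cuffdiff 2.2.1. The genome build, the annotation and the use of strand are not given in the sources used here, so no coordinates are given. The authors deposited FPKM values, 1 file for each library.

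The DESeq2 test of the study needs counts and was not used. Values were compared as log2(FPKM + 0.1) with limma 3.58.1 (lmFit, eBayes with an intensity trend) in R 4.3.3, with Benjamini-Hochberg adjustment over the 14361 genes that passed the filter. Limits of 0.05 and 1 follow the study's methods. Tables used Python 3.11.15. Of the symbols, 88% were found in RefSeq's gene table for the assembly CriGri-PICRH.

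The 7 genes and the lists, made from general knowledge of the pathway, were chosen with earlier results of these data known. Genes named are the 7, *Xbp1*, from each list those changed at least 2-fold and up to 3 more with the largest changes at an adjusted p under 0.05 and a mean of at least 1 FPKM, and for *Cdkn1a* genes among the 3 of most similar pattern. Some genes that the rule or the lists held are not reported here and were left out of these counts. *Sesn3*, *Mdm4*, *Tp63*, *Tp73*, *Bax*, *Pmaip1*, *Cdk1*, *Ccnd3*, *Ccne1*, *Ccne2*, *Ccng2* and the ratios were chosen after values were seen. The counts of genes that passed or were called and the changes of the genes named by the rule from the lists, the 7 genes and *Xbp1* were recomputed in 14 other ways, with a pseudocount of 1 or 0.01, a filter at 1 FPKM or none, median-ratio scaling, quantile normalization, eBayes without trend, a replicate block and leaving out each library in turn. *Tp53inp1* was below the filter at 1 FPKM and has 13. Ratios, medians of lists, overlaps, correlations, cell type markers and genes chosen after values were seen were not recomputed. Protein and promoter sequences were not used here.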

Additional observations from a re-analysis of the deposited data

How the results depend on the processing

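Of 531 values recomputed for 38 single genes, 511 kept their direction and their side of an adjusted p of 0.05, 19 lost it, 1 gained it (*Bbc3*) and none reversed. *Cdkn1a*, *Mdm2* and *Sesn1* passed under all 14 alternatives, and of the 7 genes *Cdkn1a* alone stayed called 2-fold lower throughout. When 1 library was left out, 2 to 3 of the 7 genes fell and 1 rose. Over the whole table, 114 genes were called higher and 205 lower with a pseudocount of 1, against 386 and 359, and 242 higher with the filter at a mean of 1 FPKM, where fewer genes (11610) are tested. Of the pathway lists together, 1 gene was called higher (*Retsat*), 0 with a pseudocount of 1, and 0 to 3 when 1 library was left out. These were not always the same genes. *Retsat* was called in 9 of 15 settings, the main one included, *Casp6* and *Dcxr* in 3 each and *Dram1* in 1. Without the trend 5 metabolic targets rose, against 8, with 0 against 2 on the DREAM list and 1 against 2 on the CDK list, and with no filter 1 gene of the DREAM list rose. Median-ratio scaling and quantile normalization moved the median log2 fold change of all genes to 0.0036 and 0.016, from 0.0063. None of the 14 alternatives scaled the libraries to equal FPKM sums, which were lower in every library with *Xbp1* siRNA. The effect of such a scaling on small changes such as that of *Mdm2* was not tested. Replicate numbers are shared between conditions, but deviations from the group means of libraries with the same number correlated across genes with r of −0.0289, −0.0265 and −0.0124, so they were not taken as pairs for a block. With such a block in the fit, 2767 genes passed higher and 2875 lower, against 2898 and 2904, and of the single genes only *Fancc* no longer passed (adjusted p = 0.0503, limma, with its log2 fold change still 0.64). The block also gave 2 arrest targets that rose, against 1, 0 DNA repair targets that rose, against 1, and 2 apoptosis targets that fell, against 1. Read totals were not part of the files, which limits what can be said of genes below 1 FPKM such as *Tp53inp1*.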
